A study of Mus musculus with 8 samples.

Results

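Parvalbumin, the calcium buffer that gives PV+ interneurons their name, was examined together with 9 other genes that buffer cytosolic calcium or move it out of the cell. The members were taken by gene name: Pvalb, Calb1 and Calb2 for the buffers, Atp2b1 to Atp2b4 for the plasma membrane calcium pumps, and Slc8a1 to Slc8a3 for the sodium-calcium exchangers. These are 10 of the 45706 genes in the deposited files, and all 10 were among the 17495 genes that passed the filter on low counts. RNA was measured as ribosome-bound transcripts: an HA-tagged ribosomal protein, Rpl10a, was expressed together with the CNO-activated receptor hM3D(Gq), and anti-HA pulldown recovered the RNA on tagged ribosomes. All animals of both groups carried the same alleles, Pvalb Flp/+ and Neurod6 Cre/+, and received the same AAV8 with the hSyn promoter in the primary somatosensory cortex (S1) at postnatal day 1. Flp made from the Pvalb locus turned the construct on, and Cre made from the Neurod6 locus removed it from pyramidal cells. The tagged cells were therefore those in which the Pvalb locus was active at some time, in animals in which 1 Pvalb allele also carries Flp, and infection was sparse. The 4 CNO samples came from mice given 5 injections of 1 mg/kg clozapine-N-oxide within 48 h, and the 4 vehicle samples from mice given vehicle on the same schedule. Mice were 42 to 70 days old, and each sample pooled the S1 of 4 brains.

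A neuron that fires at high rates admits calcium through its voltage-gated channels with every spike. EF-hand proteins such as parvalbumin, calbindin (Calb1) and calretinin (Calb2) bind that calcium within the cytosol, parvalbumin with slow onset kinetics and calbindin faster. The pumps encoded by Atp2b1 to Atp2b4 (PMCA1 to PMCA4) then extrude calcium at the cost of ATP, with high affinity and low capacity. The exchangers encoded by Slc8a1 to Slc8a3 (NCX1 to NCX3) trade calcium for sodium entering down its gradient, with lower affinity and higher capacity. In cortex, parvalbumin marks fast-spiking basket and chandelier interneurons, whereas calbindin and calretinin are more typical of other neurons.

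Library totals ran from 44064161 to 49413273 estimated counts, so depth differed little between samples, and 3 counts corresponded to at most 0.0681 CPM, the counts per 1000000 counts of a library. Fos, an activity-regulated gene, lay between 32.2 and 69.5 CPM in the CNO samples and between 11.3 and 15.8 CPM in the vehicle samples, with a log2 fold change of 1.93 ± 0.22 (SE, adjusted p = 0.052 by edgeR's quasi-likelihood test). Markers of PV+ interneurons were present, and so were those of other cells. Syt2, a synaptotagmin of PV+ terminals, ranged from 36.5 to 150 TPM (abundance per length, scaled to the sum of all transcripts), Lhx6, a transcription factor of PV+ and SST interneurons, from 25.9 to 70.5 TPM, and Gad1, which all GABAergic interneurons share, from 509 to 1817 TPM. Slc17a7, the glutamate transporter of pyramidal cells, ranged from 331 to 547 TPM. Vehicle replicate 1 stood apart. The summed level of 9 PV interneuron markers was 1257 TPM there and 2330 to 3870 TPM in the other 7 samples, and that of 10 pyramidal cell markers was 2240 TPM against 1392 to 2123 TPM. The PV markers were Gad1, Gad2, Lhx6, Syt2, Kcnc1, Kcnc2, Erbb4, Cox6a2 and Vamp1. Gad1 alone gave 509 of the 1257 TPM and 1817 of the 3870 TPM, so the sum is not specific to PV+ cells. By group, the summed PV markers ran from 2330 to 3870 TPM with CNO and from 1257 to 2958 TPM with vehicle, and the pyramidal markers from 1392 to 1917 and from 1574 to 2240 TPM. No gene of either list was listed at 0 in every sample. Main values of the members that rest on vehicle replicate 1 are also given without it.

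Across all 8 samples the members spanned a wide range of levels, compared here in TPM, which corrects for transcript length. Pvalb was the most abundant, at 907 ± 264 TPM (SD, n = 8), and ranked 82nd of the 17495 genes tested. Atp2b2, which encodes the fast pump PMCA2, followed at 289 ± 34.9 TPM. Atp2b1, the housekeeping pump PMCA1, stood at 98.5 ± 16.4 TPM and Calb1 at 51.6 ± 8.55 TPM. The remaining 6 genes lay far lower, at 11.8 ± 1.02 TPM for Atp2b3, 10.4 ± 1.89 for Slc8a3, 5.98 ± 1.03 for Atp2b4, 4.97 ± 1.29 for Slc8a1, 4.45 ± 0.68 for Calb2 and 2.27 ± 0.45 for Slc8a2. Within-sample differences of log2(TPM + 1) between neighbours in this order were tested by an exact sign-flip permutation test over the 8 samples, two-sided, with Benjamini-Hochberg adjustment over the 9 pairs. The order was taken from the same samples, so the pairs and their direction were not set in advance. Of these pairs, 6 differed. Pvalb exceeded Atp2b2 in 7 of 8 samples, by 2.97-fold in the geometric mean (exact p = 0.0156, adjusted p = 0.0234), and the exception was vehicle replicate 1, at 300 TPM for Pvalb and 302 TPM for Atp2b2. Without that sample Pvalb was at 994 ± 104 TPM (SD, n = 7). Atp2b2 exceeded Atp2b1 by 2.93-fold in 8 of 8 samples (exact p = 0.00781, the smallest the test can give, adjusted p = 0.0141). In the lower part of the order, Atp2b3 and Slc8a3 (adjusted p = 0.185), Atp2b4 and Slc8a1 (adjusted p = 0.0703), and Slc8a1 and Calb2 (adjusted p = 0.312) did not differ beyond their spread in the same exact test. Without vehicle replicate 1 the count of pairs that differed was 7, with Atp2b4 above Slc8a1 in 7 of 7 samples (adjusted exact p = 0.0201). The plasma membrane pumps summed to between 339 and 466 TPM per sample and the sodium-calcium exchangers to between 16.2 and 19.5 TPM, with no overlap between the 2 families.

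Each family was dominated by 1 member. Pvalb carried 93.1% ± 4.59 of the summed TPM of the buffers (SD, n = 8, 94.7% ± 1.01 without vehicle replicate 1), Atp2b2 71.3% ± 1.94 of that of the pumps, and Slc8a3 58.9% ± 9.41 of that of the exchangers. The make-up of the pumps was steady: Atp2b2 held between 68.2% and 74.2% in every sample, and Atp2b1 between 21.5% and 27.5%. The exchangers varied more. Slc8a3 held 63.3%, 46.9%, 67.9% and 71.3% in CNO replicates 1 to 4 and 45.0%, 56.1%, 57.3% and 63.1% in vehicle replicates 1 to 4. These shares overlapped, with the lowest values in CNO replicate 2 and vehicle replicate 1. Between groups the share of Slc8a3 differed by 6.99 percentage points (62.4% ± 10.8 with CNO, 55.4% ± 7.58 with vehicle, SD, n = 4 each), which did not pass a two-sided exact permutation test (p = 0.314, adjusted over 10 shares p = 0.531). That difference was 3.53 points without vehicle replicate 1, 4.01 points without CNO replicate 4 and 12.1 points without CNO replicate 2. For the 10 shares the adjusted permutation p ran from 0.531 to 0.8, so no change in the make-up of a family was detected between CNO and vehicle. An exact test of 4 against 4 samples cannot give a p below 0.0286.

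**Figure D1:**
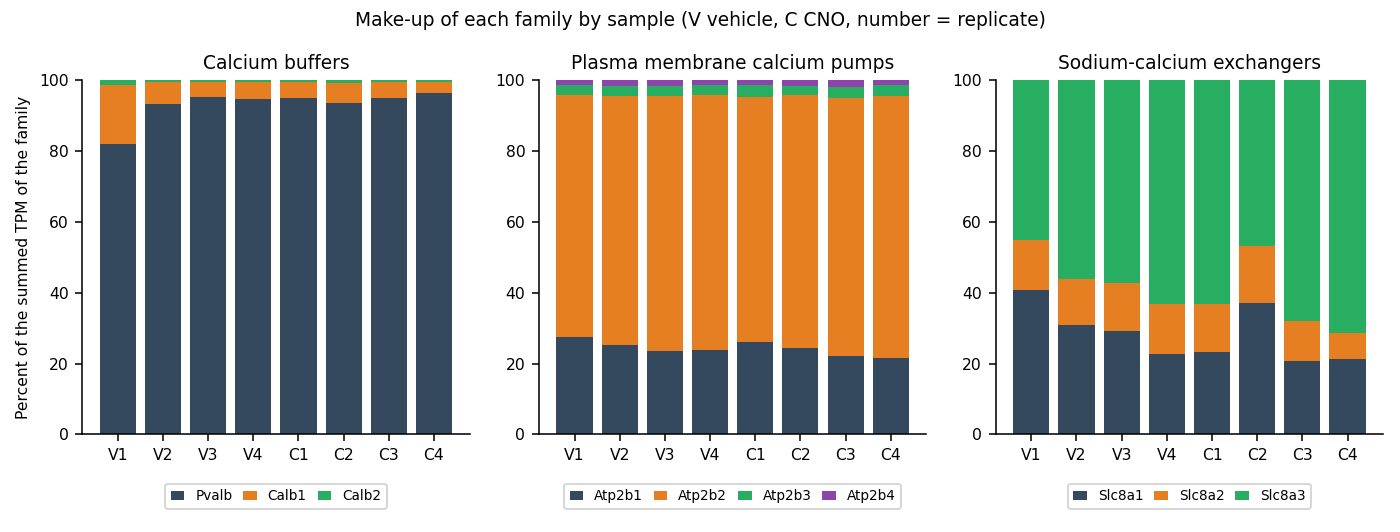
Percent of the summed TPM of each family (vertical axis) carried by each gene in the 4 vehicle (V) and 4 CNO (C) samples. Pvalb holds 82.0% of the buffers in vehicle replicate 1 and 93.3% to 96.3% in the other samples, the pumps are nearly constant, and the share of Slc8a3 among the exchangers runs from 45.0% to 71.3%.

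The central comparison asked whether 2 days of raised PV+ cell activity altered these transcripts. For none of the 10 members was a difference between CNO and vehicle detected: 0 of 10 had an adjusted p under 0.05 by edgeR's quasi-likelihood test, as did 0 of 17495 genes tested (0%), and the members' adjusted p ran from 0.817 to 0.895. At an unadjusted p under 0.05 the count was 0 of 10 members, against 716 genes (4.09%) of all those tested. In no member were the CNO and vehicle values separate, while the groups did not overlap for 423 genes (2.42%). Negative log2 fold changes were found for 7 of 10 members, against 49.6% of all genes tested, with a median of -0.11 for the members and 0.0014 for all genes. DESeq2 and the robust likelihood ratio test called 11 and 15 genes in all, of which 0 were members.

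Pvalb measured 383, 288, 370 and 446 CPM in CNO replicates 1 to 4 and 99.7, 359, 390 and 329 CPM in vehicle replicates 1 to 4. Vehicle replicate 1 was the lowest of all, and the other 3 vehicle values lay inside the range of the CNO values. The means were 372 ± 65.2 and 294 ± 132 CPM (SD, n = 4), and the log2 fold change was 0.34 ± 0.33 (SE, adjusted p = 0.820 by edgeR), with a 95% interval from -0.40 to 1.08, or 0.758-fold to 2.11-fold. Leaving out vehicle replicate 1 gave a log2 fold change of 0.04. In pulldown RNA from pooled tissue, fewer tagged cells of a type and less RNA per cell cannot be told apart. Calb1 lay between 66.1 and 80.7 CPM with CNO and between 72.1 and 90.1 CPM with vehicle, and its log2 fold change was -0.14 ± 0.10 (SE, 95% interval -0.36 to 0.08). Calb2 was a low transcript, with 32.4% of the genes tested at a lower mean TPM, at 2.46, 3.13, 2.42 and 2.97 CPM with CNO and 2.46, 2.09, 2.83 and 2.06 CPM with vehicle. All 4 CNO values of Calb2 were above the vehicle median, but the groups overlapped (log2 fold change 0.22 ± 0.18, 95% interval -0.18 to 0.61).

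**Figure D2:**
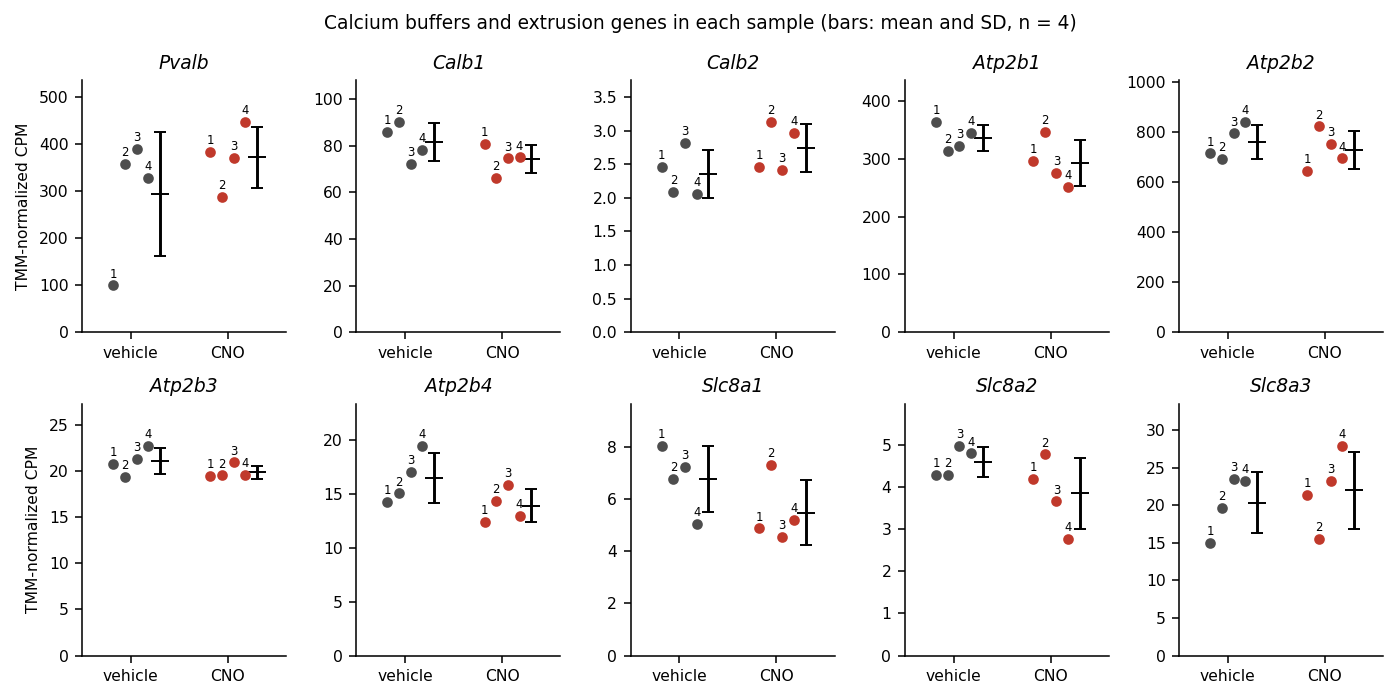
TMM-normalized CPM (vertical axes, from 0) of the 10 genes in each sample, numbered by replicate, with the mean and SD of each group of 4. In every panel the CNO and vehicle points overlap, and Pvalb in vehicle replicate 1 (99.7 CPM) lies below all other samples (288 to 446 CPM).

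Each of the 4 plasma membrane pumps had a negative log2 fold change, and none passed the test. The abundant neuronal pump Atp2b2 lay between 642 and 821 CPM with CNO and between 691 and 838 CPM with vehicle (log2 fold change -0.06 ± 0.12, SE, 95% interval -0.33 to 0.21). As a fold, its interval ran from 0.796 to 1.15. Atp2b1 measured 297, 346, 276 and 251 CPM with CNO and 363, 313, 322 and 344 CPM with vehicle. CNO replicate 2 lay inside the vehicle range and the other 3 CNO samples below it, giving a log2 fold change of -0.20 ± 0.12 (95% interval -0.46 to 0.07, adjusted p = 0.817 by edgeR). Atp2b3 had the tightest values, 19.5 to 20.9 CPM with CNO and 19.4 to 22.8 CPM with vehicle (log2 fold change -0.08 ± 0.09). Atp2b4, PMCA4, measured 12.4, 14.3, 15.8 and 13.0 CPM with CNO and 14.3, 15.0, 17.01 and 19.5 CPM with vehicle. The 4 CNO values were below the vehicle median of Atp2b4 but within reach of its lower values, and the log2 fold change of -0.24 ± 0.13 had the smallest unadjusted p of the members (0.0795, adjusted p = 0.817 by edgeR).

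Among the exchangers, Slc8a1 (NCX1) measured 4.88, 7.31, 4.54 and 5.22 CPM with CNO and 8.05, 6.77, 7.25 and 5.06 CPM with vehicle. CNO replicate 2 and vehicle replicate 4 lay on the side of the other group, and the log2 fold change of -0.31 ± 0.19 (SE, 95% interval -0.72 to 0.11, adjusted p = 0.817 by edgeR) did not pass the test. Slc8a2 (NCX2) ranged from 2.78 to 4.78 CPM with CNO and from 4.29 to 4.99 CPM with vehicle (log2 fold change -0.25 ± 0.18, 95% interval -0.64 to 0.14). Without CNO replicate 4, its lowest sample, the log2 fold change of Slc8a2 was -0.13. Slc8a3 (NCX3) measured 21.4, 15.6, 23.3 and 27.9 CPM with CNO and 15.0, 19.6, 23.6 and 23.3 CPM with vehicle. The groups were interleaved, and the log2 fold change of Slc8a3 was 0.11 ± 0.19 (95% interval -0.30 to 0.53). In the exact permutation test of log2 CPM, the 10 members gave two-sided p from 0.114 to 0.686, and 0.367 to 0.686 after adjustment over the 10. When 1 sample at a time was left out, the log2 fold change ran from 0.04 to 0.50 for Pvalb, from -0.12 to -0.0056 for Atp2b2, from -0.32 to -0.15 for Atp2b4 and from -0.47 to -0.21 for Slc8a1.

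**Figure D3:**
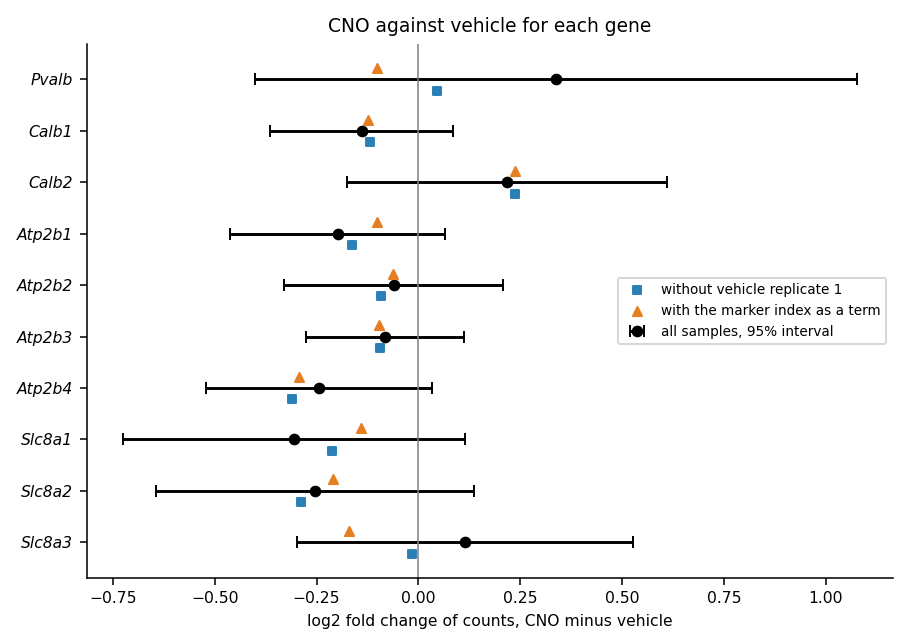
Log2 fold change of counts, CNO minus vehicle (horizontal axis), for each gene, with 95% intervals from edgeR (circles), without vehicle replicate 1 (squares) and with the marker index as a term (triangles). Intervals are drawn for the fit to all samples only, and each of these includes 0. Pvalb and Slc8a3 move from 0.34 and 0.11 to -0.10 and -0.17 once the marker index is a term.

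Members differed in how they varied from sample to sample with the PV markers. A marker index was computed in log2 CPM: the average over 9 markers of PV interneurons, with Pvalb left out, less the average over 10 markers of pyramidal cells. It measured 1.96, 1.22, 1.74 and 2.34 in CNO replicates 1 to 4 and 0.14, 1.36, 1.77 and 1.65 in vehicle replicates 1 to 4, and did not differ between groups beyond its spread (difference 0.59, exact permutation p = 0.257, and 0.22 without vehicle replicate 1). This relation was examined after the values had been seen, for 10 members over the same 8 samples. Pvalb followed the index, with Pearson's r = 0.945 (exact permutation p = 8.93e-04, adjusted over 10 p = 0.00446) and Spearman's rho = 0.952 (exact permutation p = 0.00114, adjusted p = 0.0114). Slc8a3 did so as well by Pearson's r = 0.885 (exact permutation p = 6.45e-04, adjusted p = 0.00446). Its rho of 0.833 did not pass after adjustment (exact permutation p = 0.0154, adjusted p = 0.0513). Without the 2 samples farthest from the median index, CNO replicate 4 and vehicle replicate 1, r was 0.787 for Pvalb and 0.793 for Slc8a3 over the remaining 6 samples. After group means were subtracted, r was 0.938 and 0.922, so the relation was also present within groups.

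Atp2b1 and Slc8a1 ran the other way. For Atp2b1, r was -0.779 (exact permutation p = 0.0193, adjusted p = 0.058) and rho -0.833 (exact permutation p = 0.0154, adjusted p = 0.0513), and r was -0.547 without the 2 samples. For Slc8a1, r was -0.711 (exact permutation p = 0.0232, adjusted p = 0.058), rho -0.619 (exact permutation p = 0.115, adjusted p = 0.287), and r without the 2 samples was -0.635. Neither passed after adjustment. The other 6 members had r between -0.435 and 0.163 with adjusted exact permutation p of at least 0.507. Atp2b2, the most abundant pump, was among them (r = -0.114). With the marker index as a term, the log2 fold change became -0.10 ± 0.15 for Pvalb, -0.17 ± 0.11 for Slc8a3, -0.10 ± 0.09 for Atp2b1 and -0.14 ± 0.18 for Slc8a1 (SE), so that Pvalb and Slc8a3 changed sign. Atp2b4 was at -0.29 ± 0.13. Relative to the mean of the PV markers, log2 CPM of Pvalb was 0.57, 0.82, 0.73 and 0.61 higher with CNO and 0.21, 0.90, 0.81 and 0.66 higher with vehicle, a difference between groups of 0.04 (exact permutation p = 0.914) that was -0.11 without vehicle replicate 1 (exact permutation p = 0.286).

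**Figure D4:**
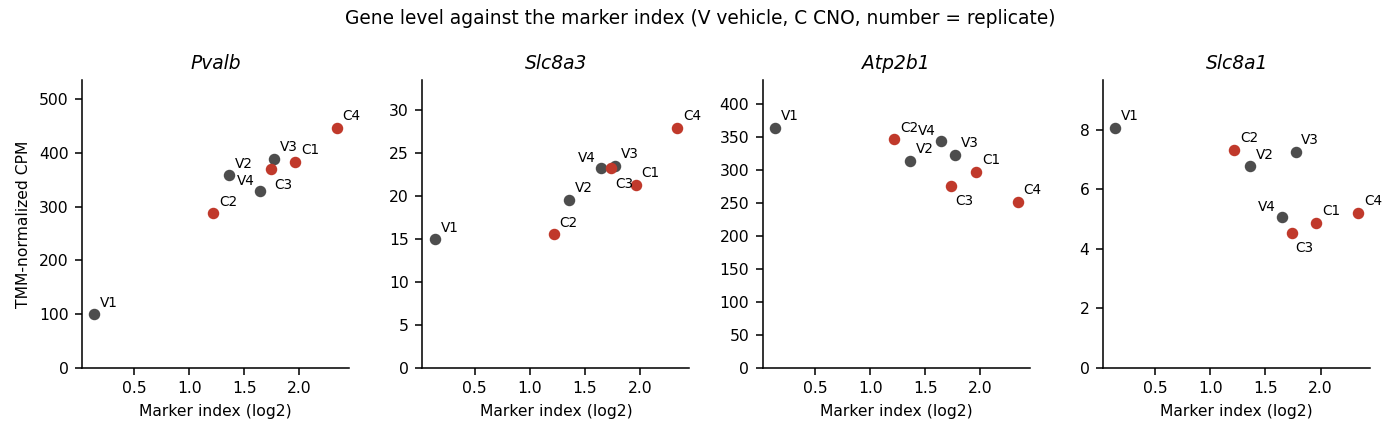
TMM-normalized CPM (vertical axes, from 0) of Pvalb, Slc8a3, Atp2b1 and Slc8a1 against the marker index (horizontal axes, log2 units) in the 4 vehicle (V) and 4 CNO (C) samples. Pvalb and Slc8a3 climb with the index (r = 0.945 and 0.885), and Atp2b1 and Slc8a1 are lower where the index is high (r = -0.779 and -0.711).

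Outside the members, the 5 genes with a mean above 1 TPM whose log2 CPM was most like that of Pvalb over the 8 samples were Tpm2, Ifitm10, Mrps11, Clpp and Chchd10, with r from 0.994 to 0.997 as the highest of 15163 genes compared. Being picked as the highest, they carry no test. In each of them vehicle replicate 1 was the lowest sample, for example 14.5 TPM of Tpm2 against 36.0 to 42.2 TPM elsewhere, and 234 TPM of Chchd10 against 497 to 680 TPM. Without CNO replicate 2 and vehicle replicate 1, the samples farthest from the median of Pvalb, r was 0.928 to 0.983.

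The upstream sequences of Pvalb and Slc8a3 are given because these were the 2 members whose Pearson correlation with the marker index passed after adjustment. Pvalb lies at chr15:78191114-78206400 on the minus strand of GRCm38 and Slc8a3 at chr12:81197915-81333180, also on the minus strand. Each sequence, from RefSeq on GRCm38.p6, holds the 250 bases before the gene's start, at chr15:78206401-78206650 for Pvalb and chr12:81333181-81333430 for Slc8a3, read 5′ to 3′ on the gene's strand. Capitals mark the letters TGACGT, the core of the cyclic AMP response element.
Pvalb: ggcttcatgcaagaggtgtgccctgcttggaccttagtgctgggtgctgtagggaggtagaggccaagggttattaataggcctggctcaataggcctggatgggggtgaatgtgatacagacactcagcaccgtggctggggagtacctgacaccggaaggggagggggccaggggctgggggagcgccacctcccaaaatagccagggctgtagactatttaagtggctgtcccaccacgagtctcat
Slc8a3: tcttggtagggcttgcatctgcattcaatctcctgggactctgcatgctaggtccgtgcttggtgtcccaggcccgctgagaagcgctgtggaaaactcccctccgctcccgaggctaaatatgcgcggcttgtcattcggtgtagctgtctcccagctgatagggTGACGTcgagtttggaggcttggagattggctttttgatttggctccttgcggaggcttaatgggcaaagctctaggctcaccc

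RefSeq entries matched 7 of 10 members, with 11 windows in all, each before a RefSeq start, and Calb1, Calb2 and Atp2b3 had none. Only the windows of Slc8a2 and Slc8a3 and the Pvalb window printed above end at the GENCODE gene start. The others precede other starts. Apart from the window of Slc8a1, all of these lie wholly or mostly inside their gene, among them that of Atp2b4 (chr1:133753748-133753997). Both strands were searched for TGACGTCA, for its core TGACGT, and for TGANTCA, with every TGACGTCA also counted as its core. TGANTCA allows any base in the middle, so it includes the AP-1 element to which Fos-containing dimers bind but is looser than it. The core occurred in 1 of the 11 windows, that of Slc8a3, 78 bases before the start. It occurs in 6.47% of all 32851 windows of this length. TGACGTCA and TGANTCA were found in 0 of the 11 windows, against 1.55% and 6.75% of all windows. These are matches of letters only.

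The ratio of counts to TPM varied more between samples for 2 members than for the other 8. The ratio of estimated counts to TPM tracks the mean length of the transcripts to which the reads were assigned, and for a typical gene its highest and lowest samples differed only 1.06-fold (median of 17409 genes) once scaled to the sample's median. For Atp2b4 this ratio differed 1.62-fold between samples, more than in 95.5% of genes. Relative to the gene's mean it was 0.953, 0.828, 0.849 and 1.13 in CNO replicates 1 to 4 and 1.06, 0.967, 0.957 and 1.34 in vehicle replicates 1 to 4. The groups overlapped, with the highest value in vehicle replicate 4 (exact permutation p = 0.257). Atp2b4 lies at chr1:133699457-133801041 on the minus strand and has 6 annotated protein-coding transcripts of 243 to 11725 bases, and its log2 fold change was -0.24 by counts and -0.11 by log2(TPM + 0.1) with limma, where the median of all genes was -0.08. Calb1, at chr4:15881264-15908064 on the plus strand, differed 1.30-fold between samples, more than in 86.6% of genes. It has 1 protein-coding transcript of 4222 bases among 3 annotated ones, and its log2 fold change was -0.14 by counts and -0.23 by log2(TPM + 0.1). The other 8 members differed by at most 1.07-fold. Stretches of 31 bases shared with transcripts of other genes made up at most 2.40% of those of any member. Atp2b2 overlaps 3 other annotated genes, Atp2b4 and Slc8a1 overlap 2 each and Slc8a3 overlaps 1, and whether the counting used strand is not given in the sources used here. On GRCm38, Atp2b1 lies at chr10:98914406-99026143 and Slc8a2 at chr7:16129826-16161063 on the plus strand, as does Atp2b3 at chrX:73503086-73571005. Atp2b2 (chr6:113743831-114042613), Slc8a1 (chr17:81373105-81738377) and Calb2 (chr8:110137502-110168210) lie on the minus strand.

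**Figure D5:**
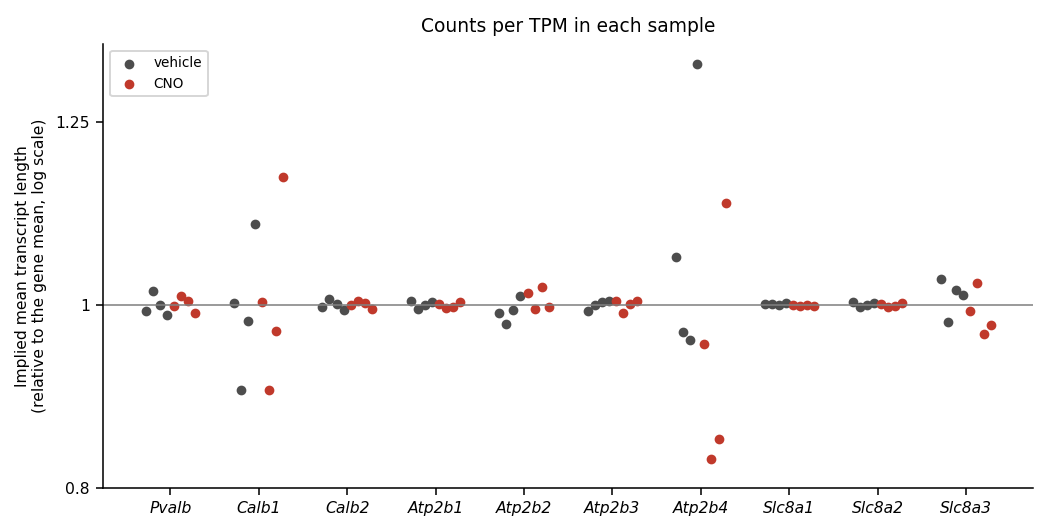
Implied mean transcript length (counts per TPM relative to the gene's mean, log scale, vertical axis) of each gene in the 4 vehicle and 4 CNO samples. Atp2b4 spans 0.828 to 1.34 and Calb1 0.902 to 1.17, while the other genes stay near 1.

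The other genes that handle calcium behaved like the members in that none was called. Of 54 genes listed in 8 groups, 49 were tested, 28 with a positive and 21 with a negative log2 fold change, and their median was 0.03 against 0.0014 for all genes. None had an adjusted p under 0.05 by edgeR, and 1 of 49 had an unadjusted p under 0.05, with the 4.09% of all genes given above. That gene was Necab1, a neuronal EF-hand protein, at 29.8, 29.3, 32.7 and 33.2 CPM with CNO and 43.4, 33.0, 37.1 and 40.1 CPM with vehicle. CNO replicate 4 and vehicle replicate 2 met, and the log2 fold change was -0.30 ± 0.10 (SE, unadjusted p = 0.0146, adjusted p = 0.817 by edgeR). The groups did not overlap for 1 of 49, against 2.42% of all genes tested. That gene was Hpcal4, a calcium sensor of the visinin-like family, at 176 to 214 CPM with CNO and 214 to 241 CPM with vehicle. The nearest samples, CNO replicate 3 at 213.6 and vehicle replicate 3 at 213.7 CPM, all but touched. The log2 fold change of Hpcal4 was -0.20 ± 0.10 (adjusted p = 0.817 by edgeR). Ocm (oncomodulin, the close relative of parvalbumin) and Scgn (secretagogin) did not pass the filter, with at most 1.33 and 0.34 TPM in any sample.

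By role, the genes with the smallest p in each group were as follows. Of the release channels of the endoplasmic reticulum, Ryr3, a ryanodine receptor, had a log2 fold change of -0.37 ± 0.17 (SE) and Itpr3, an inositol trisphosphate receptor, 0.46 ± 0.28, the latter at no more than 0.39 TPM. Both partner proteins of the plasma membrane pumps had positive values over all 8 samples, 0.29 ± 0.20 for Bsg (basigin) and 0.21 ± 0.16 for Nptn (neuroplastin). All 4 pumps had negative ones. Vehicle replicate 1 was the lowest sample for both partners. Bsg measured 124 CPM there and 214 to 301 CPM in the other samples, and Nptn 154 CPM against 196 to 282 CPM. Of the potassium-dependent exchangers, Slc24a4 stood at -0.16 ± 0.13 and Slc24a2 at 0.16 ± 0.16, and Slc24a1 was not tested. Among the pumps that fill internal stores, Atp2a2, the main neuronal SERCA, stood at 0.13 ± 0.15 and Atp2c1, of the Golgi, at -0.08 ± 0.10, and Atp2a1 was not tested. Smdt1 and Micu3, subunits of the mitochondrial uniporter complex, stood at 0.21 ± 0.18 and 0.17 ± 0.15. Vehicle replicate 1 was again the lowest sample, at 39.9 CPM of Smdt1 against 62.0 to 78.6 CPM in the others. Micu3 measured 50.2 CPM there against 59.4 to 87.9 CPM. Of the genes of store-operated entry, Orai2 stood at 0.05 ± 0.09 and Stim1 at -0.04 ± 0.08, and of the calcium-binding proteins of the reticulum lumen, Sdf4 at 0.14 ± 0.13 and Rcn1 at -0.13 ± 0.13. None of these passed edgeR's quasi-likelihood test, with adjusted p of at least 0.817. Several of them also went with the marker index across samples, as a description over 8 samples with no test: r was 0.986 for Nptn, 0.938 for Bsg, 0.909 for Slc24a2 and -0.881 for Ryr3.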

How the data were processed

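Ribosome-bound RNA of PV+ interneurons of mouse S1 was sequenced in 8 samples, 4 per group. According to the methods and the submitters' processing notes, reads were first trimmed (Trim Galore), and STAR with the GRCm38/mm10 genome, Salmon and tximport then gave gene values. The authors deposited a table of estimated counts per gene, not normalized, and a table of TPM. Versions of these 4 tools are not given in the sources used here.

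Counts were rounded, genes with fewer than 10 counts in at least 4 samples were left out, and CNO was compared with vehicle by edgeR 4.0.16 (TMM, quasi-likelihood test, R 4.3.3) across all genes, with Benjamini-Hochberg adjustment over all 17495. Values by sample are TMM-normalized CPM, and levels of different genes are compared in TPM with a pseudocount of 1. Alternatives used DESeq2 1.42.0, limma 3.58.1 and edgeR's robust likelihood ratio test, as the study's methods describe dispersion estimated robustly. Exact permutation tests of 4 against 4 samples ran over all 70 assignments. Those of correlations ran over all 40320 orders of the 8 samples, and sign-flip tests over all 256 flips. Where a sample was left out, all assignments or flips of the remaining samples were used. The count model was tested on simulated data. Gene positions are from GENCODE release M21. p-values measure the spread between pooled samples.

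The members and gene lists were chosen with earlier results of these data known. Named were the 10 members, Fos, for each group of the calcium list the 2 tested genes with the smallest p and any gene not tested, and the 5 genes most correlated with Pvalb. Mcub, on the list, is not a gene name in these files. Replicate numbers did not pair the samples.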

Additional observations from a re-analysis of the deposited data

Results flagged for a closer look

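Of 20 groups of 4 samples tested for a value far from the rest (the 10 members in each group, in log2 CPM), 2 were flagged, where chance alone flags about 1 in 20. Pvalb in vehicle replicate 1 measured 6.64 against 8.36 to 8.61 in the other vehicle samples. Atp2b3 in CNO replicate 3 measured 4.39 against 4.29 to 4.30 in the other CNO samples, a small distance within a tight group. In vehicle replicate 1 the mean log2 CPM of the PV interneuron markers was 6.43, against 7.35 to 8.19 in the other samples. The part of this in the level of Pvalb was not tested.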

How the results depend on the processing

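Across 18 alternative settings, 0 members were called in any of them and the smallest adjusted p of a member was 0.473. Of the 180 log2 fold changes so obtained, 176 kept their direction, and 8 of 10 members kept it in all settings. Pvalb became -0.10 with the marker index as a term. Slc8a3 became -0.17 with that term, and ranged from -0.0272 (without CNO replicate 4) to 0.25 (without CNO replicate 2) when 1 sample was left out, at -0.015 without vehicle replicate 1. No setting moved the median log2 fold change of all genes by more than 0.1. Over all genes, 15 were called by the robust likelihood ratio test, 11 by DESeq2, 4 without the filter and 3 with replicates 1 and 2 against 3 and 4 as a term, and between 0 and 2 when 1 sample was left out (2 without CNO replicate 1). Members at an unadjusted p under 0.05 numbered 1 with library size only and 1 with the marker index, Atp2b4 in both, where 4.94% and 3.29% of all genes passed, and 0 to 2 when 1 sample was left out: Atp2b1 and Slc8a1 without CNO replicate 2 (9.63% of all genes), Atp2b4 without CNO replicate 3 (3.20%) or vehicle replicate 1 (2.26%), and Slc8a1 without vehicle replicate 4 (4.33%). Listed calcium genes at that level numbered 3 with the marker index, where 3.29% of all genes passed, and 1 to 3 when 1 sample was left out. There were 3 without CNO replicate 2 (9.63% of all genes), and 2 without vehicle replicate 2 (3.85%) or 3 (5.00%). The difference in the share of Calb2, -0.15 percentage points, ranged from -0.24 to 0.0714 (without vehicle replicate 1), and that of Atp2b4, 0.08, was -0.13 by counts and ranged from -0.0391 (without CNO replicate 3) to 0.17. The share of Atp2b3 differed by 0.07 percentage points with all samples (exact permutation p = 0.686). Without CNO replicate 2 it differed by 0.21 points (exact permutation p = 0.0286, not adjusted). No other share reached that p when 1 sample was left out. Causes of these shifts were not tested. Samples with the same replicate number deviated together with r from -0.03 to 0.24, so the numbers were not taken as pairs. With the replicate block, 0 genes and 0 members were called, and Pvalb was at 0.47. Groups of 4 samples leave the interval of Pvalb wide, from 0.758-fold to 2.11-fold.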

Other observations

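Markers of other cells were also measured in the pulldown, and none of the 9 marker lists held a gene listed at 0 in every sample. Summed levels ran from 480 to 888 TPM with CNO and from 650 to 845 TPM with vehicle for 5 oligodendrocyte markers, from 154 to 238 and from 183 to 246 TPM for 5 astrocyte markers, from 37.3 to 59.5 and from 47.2 to 69.99 TPM for 5 microglia markers, and from 41.1 to 120 and from 62.4 to 90.5 TPM for 4 endothelial markers. For other interneurons they ran from 133 to 159 and from 109 to 186 TPM (3 SST markers), from 29.8 to 41.5 and from 40.5 to 51.3 TPM (5 VIP markers), and from 159 to 232 and from 236 to 328 TPM (3 LAMP5 markers). None of the listed markers had an adjusted p under 0.05 by edgeR. At an unadjusted p under 0.05 there were 2 of 3 in the LAMP5, 1 of 5 in the microglia and 1 of 9 in the PV list. Among all genes tested, 4.09% passed that level. Over all 8 samples, all 9 PV markers had positive and 9 of 10 pyramidal markers negative log2 fold changes, with medians of 0.43 and -0.15. These values include vehicle replicate 1, where summed PV markers were 1257 TPM against 2330 to 3870 TPM in the other samples. Without that sample, mean TPM stayed higher with CNO for Gad1, Gad2, Lhx6, Syt2, Kcnc2, Cox6a2 and Vamp1. It was lower with CNO for the remaining PV markers, Kcnc1 and Erbb4. The group difference in the marker index was 0.59 with all samples and 0.22 without it. The part of the cell types marked here in the levels of the calcium genes was not tested.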
